A study of Arabidopsis thaliana with 2 samples.

Results

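Strictosidine synthase-like genes were examined in root pericycle cells of Arabidopsis thaliana kept with or without iron. The members were 10 loci of this family, taken by locus, of which 6 had a single-gene probe set among the 13436 that could be tied to a gene of the reference table. The measured members were AT3G57020, AT3G57010, AT3G57030, AT3G51440, AT3G51450 and AT1G74010. The remaining 4, LAP3 (AT3G59530), SSL4 (AT3G51420), SSL3 (AT1G08470) and AT5G22020, had none and were not analysed here. Here and below, a measured gene is one with a single-gene probe set in the annotation used. That annotation lists no gene for 8785 probe sets, so a gene not measured here may still have a probe set on the array. The family was chosen by the reading of AT3G57020, which was among the highest without iron relative to its reading with iron, so the values of these genes are given as a description and no test was applied to them.

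Both groups were seedling roots of ecotype Columbia carrying the GFP reporter J2661, grown for 6 days on standard medium and collected at 7 days. The group with iron spent the last 24 h on medium whose iron was supplied as Fe(III)-EDTA. The group without iron spent them on medium in which 0.3 mM ferrozine, a chelator of ferrous iron, took the place of the iron salt. Roots were turned into protoplasts and the fluorescent cells, the pericycle by the labels, were sorted. The labels mention 3 biological replicates, and 1 column of values per condition, labelled replicate 1, was used here. The labels do not say if such a column could combine replicates, and each was taken as 1 array. The scale is not stated either, and the values were taken as linear because all are above 0 and right-skewed, so every fold and log2 difference rests on that reading. No value below therefore has a replicate error or a p-value, and every comparison describes this pair of arrays alone. In sorted cells, less RNA per cell and fewer cells of a type cannot be told apart.

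Strictosidine synthase is the enzyme of alkaloid-making plants such as Catharanthus roseus and Rauvolfia serpentina that joins tryptamine to secologanin, the entry step to monoterpenoid indole alkaloids. Arabidopsis is not known for such alkaloids, and its strictosidine synthase-like proteins carry the name through their sequence, with a beta-propeller fold. For most of them the reaction catalysed is not known. LAP3 is the member best known by its mutant, in which the pollen wall is defective, and SSL5, also called YLS2, was described from senescing leaves.

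AT3G57020 read 3.55 arbitrary units of linear intensity with iron and 12.5 without, a 3.52-fold higher reading without iron. On the log2 scale this difference, without minus with iron, was 1.82. AT3G57020 lies directly between 2 other members, AT3G57010 and AT3G57030, and no other protein-coding gene separates the 3 in the reference annotation. AT3G57010 read 13.0 with iron and 19.4 without, a log2 difference of 0.58. AT3G57030 read 4.41 and 6.63, a log2 difference of 0.59. The flanking copies were thus 1.495-fold and 1.503-fold higher without iron, and their differences lay within 0.01 of each other. The difference of AT3G57020 exceeded that of AT3G57010 by 1.24 and that of AT3G57030 by 1.23 on the log2 scale. In the authors' deposited table the q values of AT3G57020, AT3G57010 and AT3G57030 were 0.0174, 0.0223 and 0.00447, so the member with the widest difference here did not have the lowest q there. The arrays and the test behind q are not given in the sources at hand.

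**Figure D1:**
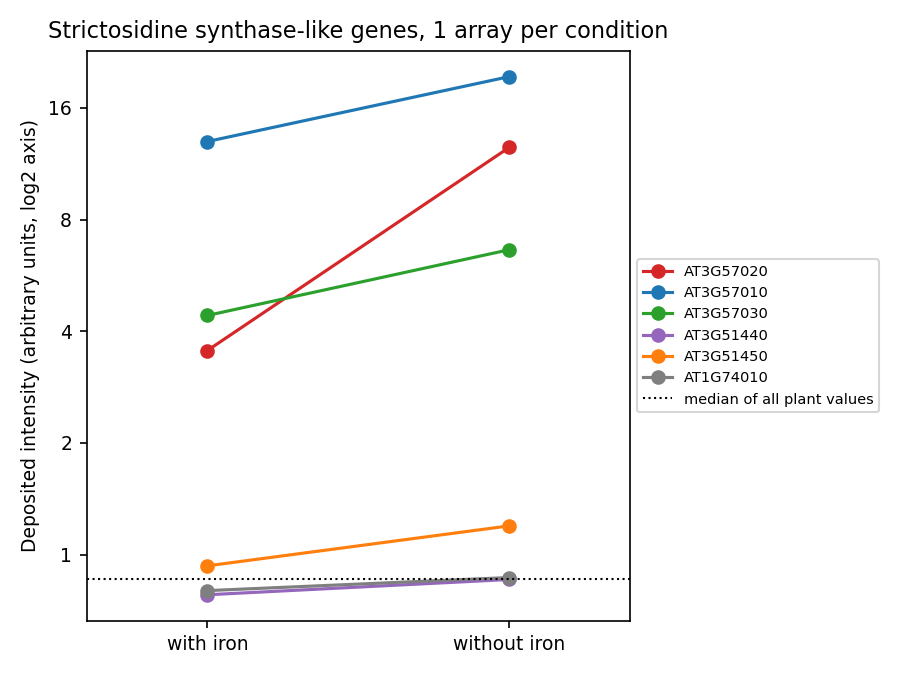
Deposited intensity (arbitrary units, log2 axis) of the 6 measured members on the array with iron and the array without, 1 point per array, with lines joining the points of a gene. The line of AT3G57020, from 3.55 to 12.5, is the steepest; heights of different genes come from different probe sets and cannot be set against each other.

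The readings of these 3 genes have to be seen against the other bright probe sets, because bright probe sets read higher and dim ones lower on the array without iron. Among the 500 plant probe sets closest in brightness to AT3G57020, 98.8% were higher without iron and the median log2 difference was 0.62. None of these 500, which include AT3G57020 itself, exceeded it, and the next widest log2 difference among them was 1.47. As AT3G57020 was chosen for its difference, its place at their top carries no weight of its own. After subtraction of a smooth curve of difference on brightness, fitted to all plant probe sets, AT3G57020 remained 2.29-fold higher without iron, a relative log2 difference of 1.20. The spread of relative differences among its 500 neighbours in brightness, as a robust SD between genes and not between replicates, was 0.25. AT3G57010 and AT3G57030 lay at relative log2 differences of -0.01 and -0.03, with spreads of 0.25 and 0.23. The higher readings of the flanking copies were therefore the size typical of probe sets as bright as they are. Around AT3G57010, the median log2 difference of 500 probe sets was 0.57, and around AT3G57030 it was 0.65.

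**Figure D2:**
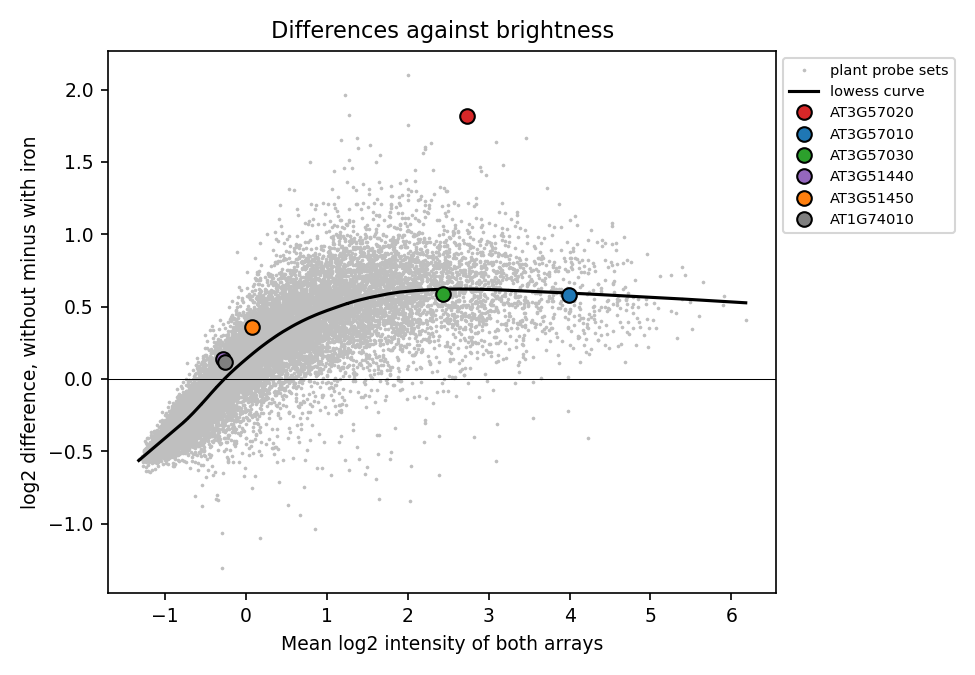
Log2 difference, without minus with iron, against the mean log2 intensity of both arrays for all 22746 plant probe sets (grey), with the fitted curve (black) and the 6 members (coloured). AT3G57020 lies 1.20 above the curve, while AT3G57010 and AT3G57030 lie on it.

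Ranked by difference as deposited, AT3G57020 was at place 4 of 13436 single-gene probe sets, and it was at place 4 again by the relative difference. AT3G57030 and AT3G57010 took places 1399 and 1449 by difference and 8390 and 7526 by relative difference. The latter pair of places is past the middle of the ranking. AT3G57020 has 2 RefSeq transcripts, which its probe set was not used to separate. Whether the probe sets of the 3 neighbouring copies also bind transcripts of each other was not tested.

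A second group of family loci, SSL4, YLS2 (AT3G51430), AT3G51440 and AT3G51450, also stands in an unbroken row on chromosome 3, and its last 2 loci were measured. AT3G51450 read 0.933 with iron and 1.20 without, a log2 difference of 0.36, and 0.18 relative to like brightness. AT3G51440 read 0.780 and 0.858, log2 differences of 0.14 and 0.15. In the authors' deposited table, q was 0.0314 for AT3G51450 and 0.218 for AT3G51440. Both genes read close to the median of all plant values, 0.858. Their relative differences compare with local spreads of 0.16 and 0.14, and in each case 64 of the 500 probe sets of like brightness lay higher. AT3G51440 stayed just under the median on both arrays, and AT3G51450 was above it on both.

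AT1G74010 is the middle locus of another row, on chromosome 1, between SS3 (AT1G74000) and SS2 (AT1G74020), which are named after strictosidine synthase itself. It read 0.800 with iron and 0.868 without, a log2 difference of 0.12 and a relative log2 difference of 0.11. The authors' deposited table gives it a q of 0.279, the highest among the members. The local spread at its brightness was 0.14, and 108 of 500 probe sets of like brightness had a higher relative difference. AT1G74010 and AT3G51440 were thus the members with the narrowest differences as deposited, and both read close to the median of the arrays.

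All 6 measured members read higher without iron as deposited, where 49.9% of all plant probe sets did. Among 500 probe sets of like brightness, the share was 98.8% around AT3G57020, 99% around AT3G57010 and 98.2% around AT3G57030. It was 47% around AT3G51440, 83.8% around AT3G51450 and 55.2% around AT1G74010. Relative to like brightness 4 of the 6 were above 0, beside 50.8% of all plant probe sets, and the pair below 0 were AT3G57010 and AT3G57030. A combined rule asked for at least 1.5-fold higher here and below 0.05 in q of the authors' deposited table. It was met by 2 members, AT3G57020 and AT3G57030, and by 11.2% of all plant probe sets. Of 500 probe sets of like brightness, 55.4% around AT3G57020 and 62.4% around AT3G57030 were at least 1.5-fold higher, whatever their q. With q under 0.01 required in the authors' deposited table, AT3G57020 did not meet the combined rule and AT3G57030 did. AT3G57030 at 1.503-fold and AT3G57010 at 1.495-fold lay just inside and just outside that fold. The same rule downward was met by 0 members and by 0.171% of plant probe sets. Without regard to size, the authors' deposited table lists q under 0.05 for 4 of the 6 members and for 61.3% of all plant probe sets. A 2-fold higher reading was seen for AT3G57020 alone of the 6, and for 1.08% of all plant probe sets. Relative to like brightness, AT3G57020 was also the 1 member at 2-fold or more, beside 0.0572% of plant probe sets, and the 1 member to meet the combined rule on the relative scale, which uses q of the authors' deposited table, beside 0.497%. Because AT3G57020 was picked for this reading, its place in these small shares carries no weight of its own. Over the 6 members the median log2 difference was 0.47 as deposited and 0.13 on the relative scale. The medians of all plant probe sets were -0.0023 and 0.0023, and among those with at least 1 reading at or above the median value, the first was 0.37.

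The protein-coding genes that border the family rows were read in the same way, 3 on each side, and 9 of the 18 around the 3 rows with a measured member had a probe set. Next to AT3G57010 stands AT3G57000, which read 1.05 with iron and 1.71 without, a log2 difference of 0.70 and a relative one of 0.39. On the other side, CBL, the cystathionine beta-lyase of methionine synthesis, read 5.34 and 8.73, with differences of 0.71 and 0.09. AT3G57060 read 0.788 and 0.726, with differences of -0.12 and -0.04. None of these 3 neighbours came near the relative difference of AT3G57020. The row begins 3 genes after bHLH39, a transcription factor of the iron deficiency response, but bHLH39 had no single-gene probe set and was not analysed here. Neither was ARR9, a cytokinin response regulator that directly follows AT3G57030. Around the second row, the 4 measured neighbours had relative log2 differences of -0.12 for AT3G51400, -0.05 for AT3G51410, -0.07 for AT3G51470 and -0.10 for the glutamate receptor-like channel gene GLR3.6. AT3G51440 and AT3G51450, at 0.15 and 0.18, lay above all 4. However, AT3G51400, AT3G51410, AT3G51470 and AT3G51440 read below the median of all plant values on both arrays, so this compares mostly low readings. Before the row on chromosome 1, AT1G73970 was at -0.0026 and SPPA, a plastid protease gene, at 0.11, the latter close to the 0.11 of AT1G74010.

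**Figure D3:**
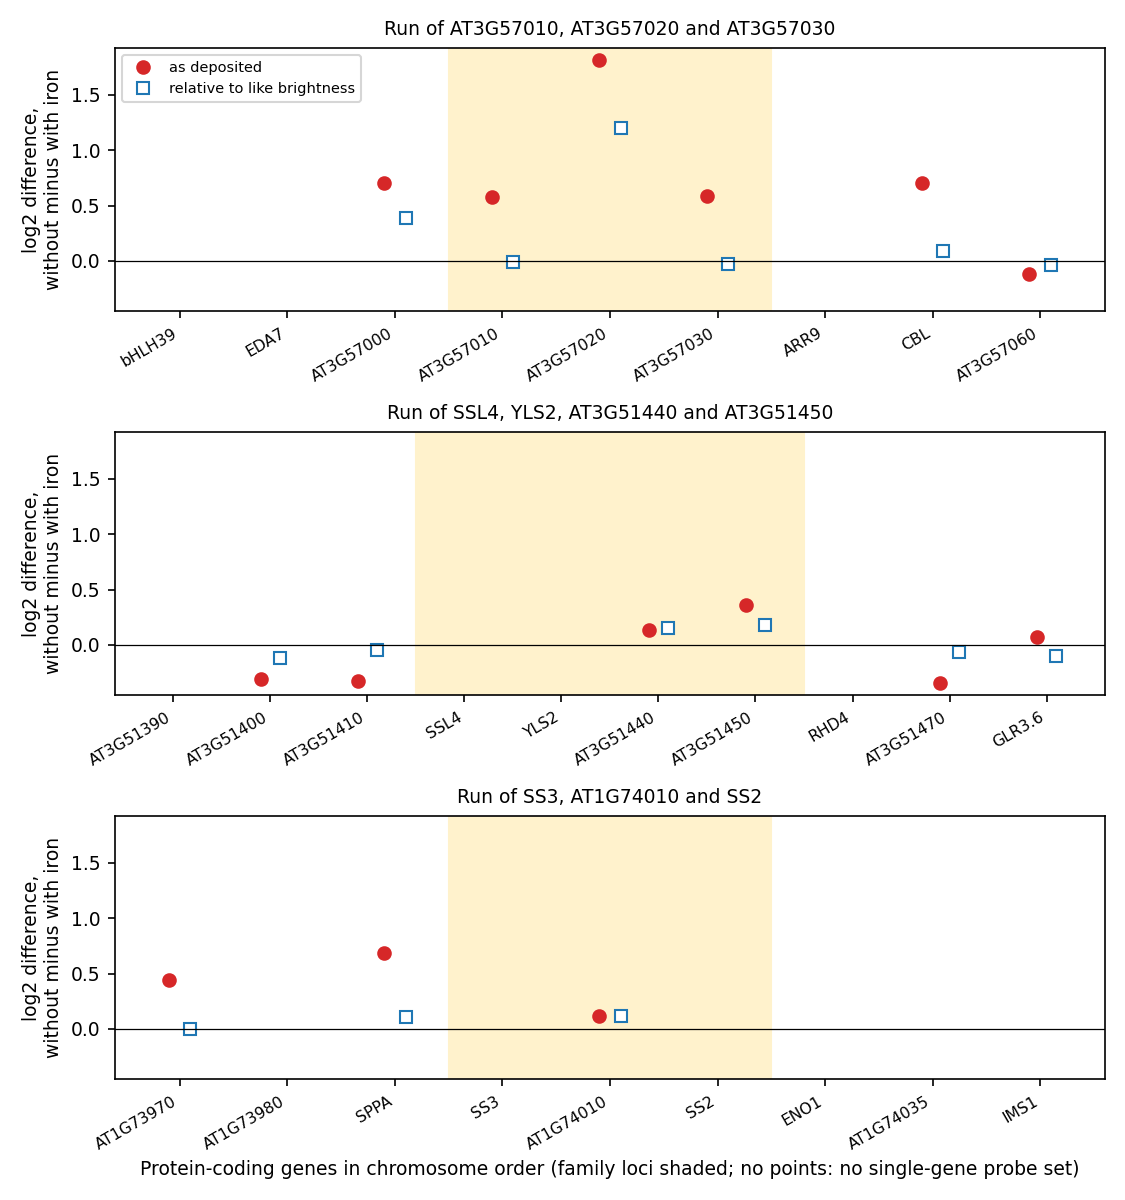
Log2 difference, without minus with iron, for family loci (shaded) and their 3 nearest protein-coding neighbours on each side, in chromosome order and not to distance, as deposited (red circles) and relative to like brightness (blue squares). In the upper panel AT3G57020, at 1.82 and 1.20, stands above both flanking family members and every measured neighbour.

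The genes whose readings on both arrays came closest to those of AT3G57020 were found by the Euclidean distance over the 2 log2 values, among all single-gene probe sets. This distance also holds differences in how strongly probe sets bind, so it describes readings and not transcript levels. The nearest were AT1G52060, at a distance of 0.42, FATB at 0.43, AT3G02480 at 0.46, AT1G33700 at 0.50 and psbA at 0.52. AT1G52060, of the jacalin-type lectin family, read 4.40 with iron and 10.2 without, a log2 difference of 1.22. FATB, a thioesterase that releases saturated fatty acids from the plastid's fatty acid synthesis, read 4.66 and 11.1, a difference of 1.25. AT3G02480, of a late embryogenesis abundant family, read 4.67 and 10.7, a difference of 1.20. AT1G33700 read 3.58 and 8.82, a 2.46-fold higher reading without iron. The plastid gene psbA, for the D1 protein of photosystem II, read 4.89 and 10.6, a difference of 1.11. Relative to like brightness these 5 lay between 0.49 and 0.68, beside 1.20 for AT3G57020. As AT3G57020 was chosen for its difference and 3 single-gene probe sets exceed it, smaller differences among the nearest genes were set by that choice.

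Genes around the textbook roles of the family gave few values. Of 14 genes of tryptophan and indole metabolism, from which tryptamine would derive, AT2G04400 (indole-3-glycerol phosphate synthase) was measured. It read 2.63 with iron and 3.99 without, a log2 difference of 0.60, or 0.02 on the relative scale. Of 10 genes of pollen wall formation, the process known for LAP3, SWEET8 was measured and read 0.720 and 0.576, below the median of the arrays in both. Of 18 genes of jasmonate, wounding and defence, PDF1.2, a plant defensin, was measured and read 0.597 and 0.447, also below it. None of the 5 further family loci, SSL1, SSL2, YLS2, SS2 and SS3, had a single-gene probe set.

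The labelled cell type was compared with marker genes, of which 2 of 12 for pericycle and stele were measured. AT4G30450, expressed at the xylem-pole pericycle, read 40.6 with iron and 51.5 without, and LHW, a transcription factor of vascular cells, read 3.82 and 5.66. Their relative log2 differences were -0.20 and -0.05. Summed readings of both were 44.4 with iron and 57.1 without. Both measured cortex markers of 2 were low, with AT1G62500 at 0.638 and 0.497 and AT1G09750 at 0.700 and 0.519. For root hair and epidermis, EXPA7 and EXPA18 of 9 markers were measured. EXPA7 read 1.06 with iron and 0.820 without, and EXPA18 read 0.993 and 0.802. Both were above the median of all plant values with iron and below it without. Their relative log2 differences were -0.47 and -0.36. The endodermal receptor kinase GSO1, 1 of 7 markers, read 1.46 and 1.44, above the median of all plant values on both arrays. Its relative log2 difference was -0.37. OPS, 1 of 6 phloem markers, read 0.768 and 0.866, with a relative log2 difference of 0.19. No xylem or root cap marker of 7 and 4 had a single-gene probe set in the annotation used. The part of any other cell type in the readings of AT3G57020 was not tested.

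The difference of AT3G57020 kept its direction under each of the 6 other scalings tried. With pseudocounts of 1 and 16 this was fixed in advance, as the same amount is added to both readings. Setting the median difference to 0 took 0.37 from 1.82 and the brightness curve took 0.62, so neither could reverse a difference chosen for its size. The difference of AT3G57020 was 1.20 after quantile normalization of the pair and 1.45 with the median difference set to 0. After an offset and a scale factor between the arrays were removed, it was 1.19. AT3G57010 and AT3G57030 had the opposite sign to their deposited difference under 3 of these scalings, quantile normalization, subtraction of the brightness curve and removal of the offset and scale factor. AT3G51440, AT3G51450 and AT1G74010 had it when the median difference was set to 0. The gap between AT3G57020 and the flanking copies was 1.21 to 1.34 over AT3G57010 and 1.23 to 1.26 over AT3G57030 on the log2 scale. These ranges cover the deposited values and the 4 scalings without a pseudocount. Setting the median difference to 0 could not move the gaps, as it takes the same amount from every gene. The brightness curve takes close to the same amount from each of these genes. AT3G57020 was chosen for its difference, so wide gaps follow from that choice. The gaps were 1.02 and 1.07 with a pseudocount of 1. With a pseudocount of 16, which compresses low readings, these gaps were 0.26 and 0.40.

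**Figure D4:**
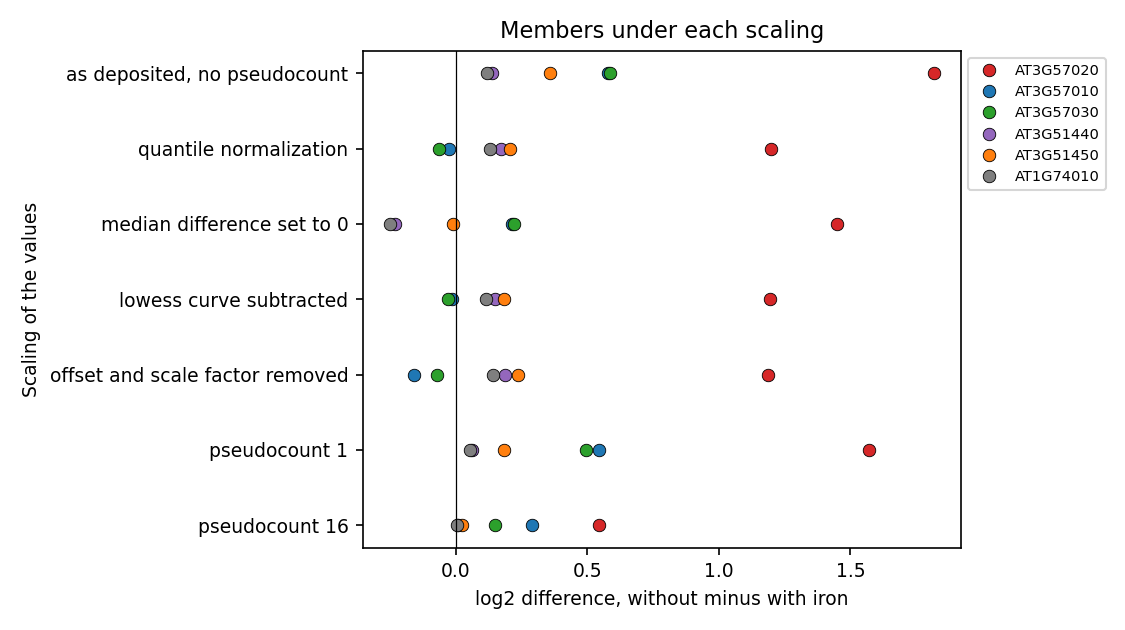
Log2 difference, without minus with iron, of the 6 members (coloured points) as deposited and under 6 other scalings (rows). AT3G57020 is the rightmost point in every row, from 0.54 with a pseudocount of 16 to 1.82 as deposited. The other 5 members lie between -0.25 and 0.59, and each changes side under at least 1 scaling.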

How the data were processed

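The authors deposited 1 column of intensity per sample, taken here as linear and as 1 array each since neither is stated, from 1-colour Affymetrix arrays hybridised with biotin-labelled cRNA amplified in 2 cycles, per the labels' protocols. Background correction, summarisation and scaling are not given in the sources at hand. Amplification favours 3' ends, and protoplasting itself alters some transcripts. A second table from the authors holds q-values for the difference between conditions, per the labels. Both columns were mapped by sample name.

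Of 22801 probe sets, 55 controls were left out. Platform annotation gave 13513 probe sets with 1 gene, 503 with several and 8785 with none listed, and 13436 of the first were found by gene ID in the TAIR10.1 gene table, which was used for names and gene order. Differences are log2 without pseudocount. The brightness curve is a lowess fit (fraction 0.2, statsmodels 0.14.6) over 22746 plant probe sets, and the local SD is 1.4826 times the median absolute deviation over 500. The filter on low readings was the median of all plant values, to be reached on at least 1 array. AT1G74010 reached it only without iron. The brightness curve, quantile normalization and offset fit were also run on simulated data. Those data were built from these same arrays, without replicates or q, so they do not bear on replicate error or the rule with q. Alternatives were other scalings, pseudocounts of 1 and 16, filters, and thresholds. With 1 array per condition no test was run. Protein and promoter sequences were not used here. Members, lists and rules were chosen with earlier results of these data known. Every measured member was named, with up to 4 genes per other list, the 5 most like AT3G57020 and 3 neighbours a side.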

Additional observations from a re-analysis of the deposited data

How the results depend on the processing

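No paired analysis was possible because each condition has 1 column of values, taken as 1 array, and for the same reason no array could be left out. A log2 difference was taken as moved when it shifted by more than the local SD among probe sets of like brightness. For the median over members, the median of their local SDs was used. A count or rank was taken as moved when it changed by more than 1.5-fold or fell to 0. The difference of AT3G57020, 1.82 as deposited, was 1.20 after quantile normalization, 1.45 with the median difference set to 0, 1.20 with the brightness curve subtracted, 1.19 with the offset (0.341 units) and scale factor (0.584) removed and 0.54 with a pseudocount of 16. The median over the 6 members, 0.47 as deposited, was 0.15, 0.10, 0.13, 0.16 and 0.086 in the same order. The count by fold and q of the authors' deposited table, 2 as deposited, was 1, AT3G57020, under those first 4 scalings, with a pseudocount of 1 and at 2-fold, and 0 with a pseudocount of 16. At q under 0.01 in the authors' deposited table it was also 1, but there AT3G57020, with q 0.0174, no longer met the rule and AT3G57030 was the member left. The count at 2-fold, 1 as deposited, was 0 with a pseudocount of 16, which exceeds all but 1 of the members' readings. AT3G57020 ranked 8 with the offset and scale factor removed and 2 with a pseudocount of 1, against 4 as deposited. Reversed values were -0.026, -0.013 and -0.16 for AT3G57010 and -0.065, -0.031 and -0.073 for AT3G57030 (quantile, curve, offset), and -0.23, -0.0087 and -0.25 for AT3G51440, AT3G51450 and AT1G74010 with the median difference set to 0. Setting the median difference to 0 takes the same 0.37 from every probe set. Subtraction of the brightness curve takes 0.62 from AT3G57020, 0.59 from AT3G57010 and 0.62 from AT3G57030. A pseudocount adds the same amount to both readings of a gene and so narrows its difference. What made the readings of the arrays differ with brightness was not tested. The filtered median over members was 1 gene's value, 0.58 (AT3G57010) at the median and 0.59 (AT3G57030) at the 75th percentile, within that SD. The latter kept only AT3G57020 and its flanking copies, so no family median was tested there. Taking the brightest probe set of a gene could not change the count at 2-fold, as each measured member has 1 probe set. All 6 member probe sets carry the plain suffix. Signal over background was not measured here.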

Other observations

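Gaps between adjacent genes were also described. Genes that are not adjacent were not paired, so no likeness particular to neighbours can be read from these gaps. Over 1709 pairs of adjacent protein-coding genes in which both had a single-gene probe set and a reading at or above the median, the median gap between the relative log2 differences of a pair was 0.19. The gap between AT3G57010 and AT3G57020 was 1.21, and 12 pairs, or 0.702%, had a wider one. The gap between AT3G57020 and AT3G57030 was 1.23, with 10 pairs wider, or 0.585%. AT3G57020 was chosen for its reading, so wide gaps beside it follow from that choice. Their places among the 1709 pairs carry no weight of their own.

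The q of AT3G57020 was above the median for probe sets with so wide a difference. In the authors' deposited table its q was 0.0174, while the 14 probe sets at least 3-fold higher without iron had a median q of 0.00109, and 3 of the 14 had a higher q than AT3G57020. Among the 246 probe sets at least 2-fold higher, the median q in the authors' deposited table was 0.00105, and 31 had a q above that of AT3G57020. The spread between the arrays behind q was not analysed here.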
